A study of Mus musculus with 6 samples.

Results

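Oxidative phosphorylation genes were compared between fractions of tumours sorted as CD133 high and CD133 low. The genes encode subunits of complexes I to V of the mitochondrial inner membrane and cytochrome c. They were chosen by symbol (Nduf, Sdh, Uqcr, Cox4 to Cox8 and Atp5 families, with Cyc1 and Cycs), among probe sets assigned to a single gene, and each gene is given by its brightest probe set. This took 83 of the 18193 genes of the array, of which 33 belong to complex I, 4 to complex II, 9 to complex III, 19 to complex IV and 17 to complex V, and 1 encodes cytochrome c.

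The 3 CD133 high and the 3 CD133 low samples all came from tumours of 344SQ, a mouse lung adenocarcinoma line that was derived from an animal carrying KrasLA1/+ and p53R172HdelG/+ and that metastasizes readily. The tumours grew under the skin and were separated into the fractions by flow cytometry on CD133, a surface antigen used to mark progenitor-like cells. No treatment, age or time is named for either fraction. Replicate numbers are not in the labels and follow the order of the deposited samples. The labels do not say how many animals or sorts the samples came from, nor whether tumours were pooled, so the p-values here reflect no more than how these samples scatter, and that scatter could be technical.

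Complexes I, III and IV pass electrons from NADH to oxygen by way of ubiquinone and cytochrome c and pump protons across the inner membrane, complex II feeds in electrons from succinate without pumping, and complex V, the ATP synthase, uses the proton gradient to make ATP. Most subunits are encoded in the nucleus, and a few central ones in the mitochondrial genome. In tumours these genes often serve as a gauge of respiratory capacity, although transcript and protein amounts need not move together.

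Prom1, which encodes CD133, stood at 6.81, 6.63 and 6.40 (log2) on CD133 high samples, against 5.49, 5.92 and 6.06 on CD133 low samples, without overlap (difference 0.79, SE 0.26, limma, adjusted p = 0.297). The samples were not alike within a fraction. The control probe sets for Gapdh, at the 3' end of the transcript minus its middle, stood at −0.13, 0.44 and 0.46 (log2) on CD133 high replicates 1, 2 and 3, against −0.09, −0.09 and −0.07 on the CD133 low samples. The same difference for beta-actin was 0.15, 0.41 and 0.48 on the CD133 high samples and 0.12, 0.14 and 0.21 on the CD133 low samples, so CD133 high replicates 2 and 3 stood apart from the other samples in both. Hybridisation controls averaged 10.18, 11.05 and 10.81 on the CD133 high samples, against 9.94, 10.28 and 9.96 on the CD133 low samples. Poly-A controls averaged 11.25, 11.57 and 10.3 on the CD133 high samples, against 11.96, 12.24 and 11.56 on the CD133 low samples. The part of the poly-A control difference in the results was not tested. Of 7 epithelial markers, 4 were lower and 3 higher in the CD133 high fraction, with a median difference of −0.13 and none past the test in limma. Epcam stood at 10.20 to 10.86 on CD133 high samples and 10.39 to 10.47 on CD133 low samples. The CD133 high samples lay wholly below the CD133 low samples for Cldn7 (−0.73) and Cldn4 (−0.42), as in 12.8% of all genes. They lay wholly above them for Krt8 (0.41), as in 10.8% of all genes. Macrophage markers were measured in both as well: the summed linear signal of 9 macrophage markers was 49880 to 55950 in the CD133 high fraction and 49410 to 52480 in the CD133 low fraction. Of these markers 4 were lower and 5 higher. The CD133 high samples lay wholly above the CD133 low samples for Cd163 (1.24) and Mrc1 (0.58), as in 10.8% of all genes. The markers with the most negative differences, Cd68 (−0.64) and C1qb (−0.495), overlapped between the fractions.

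Promoter sequences of 4 of the genes are shown because they are the genes with the smallest p of complexes I, III, IV and V for which RefSeq (GRCm38.p6) gave a window, and because most members of these complexes lay on the same side of the CD133 low samples. Each is the 250 bases before the annotated start, 5′ to 3′ on the gene's own strand. Capitals mark matches, on either strand, to GCGCA and GCGC with any 1 base between them, the core recognised by nuclear respiratory factor 1, and to CCGGAAG, a site of ETS factors such as GABP, which are both known to bind promoters of respiratory chain genes.
Ndufs3 (chr2:90904722-90904971, minus strand): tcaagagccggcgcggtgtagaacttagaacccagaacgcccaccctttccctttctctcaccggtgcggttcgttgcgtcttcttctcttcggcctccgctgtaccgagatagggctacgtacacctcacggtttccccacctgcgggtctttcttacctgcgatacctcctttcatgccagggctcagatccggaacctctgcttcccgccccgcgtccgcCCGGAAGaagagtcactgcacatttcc
Uqcr10 (chr11:4704345-4704594, minus strand): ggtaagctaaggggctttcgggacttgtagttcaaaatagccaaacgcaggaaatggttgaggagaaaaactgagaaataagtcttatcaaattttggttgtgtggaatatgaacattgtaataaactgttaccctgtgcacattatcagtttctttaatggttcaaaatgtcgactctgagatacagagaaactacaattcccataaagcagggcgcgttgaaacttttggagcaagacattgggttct
Cox6b1 (chr7:30626115-30626364, minus strand): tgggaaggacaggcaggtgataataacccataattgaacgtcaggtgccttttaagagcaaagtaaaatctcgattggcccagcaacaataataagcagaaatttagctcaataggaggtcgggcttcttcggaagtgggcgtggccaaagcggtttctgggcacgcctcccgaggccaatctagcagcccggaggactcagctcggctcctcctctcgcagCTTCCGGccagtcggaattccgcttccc
Atp5g2 (chr15:102671048-102671297, minus strand): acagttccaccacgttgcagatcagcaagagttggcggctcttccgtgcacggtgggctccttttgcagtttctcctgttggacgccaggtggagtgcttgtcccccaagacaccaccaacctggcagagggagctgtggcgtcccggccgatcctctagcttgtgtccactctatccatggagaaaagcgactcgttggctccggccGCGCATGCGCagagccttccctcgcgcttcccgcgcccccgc

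A window was given for 67 of the 83 genes. The first listed window was used where a gene had more. The nuclear respiratory factor 1 core was found in 14.9% of these windows, against 3.86% of the windows of all 27025 genes, and CCGGAAG in 16.4% against 7.05%. At least either motif was present in 18 of the 67 windows (26.9%), against 10.3% of all windows. The G-rich GGGCGG, bound by SP1, was found in 37.3% of member windows and 32.9% of all windows. These are matches of letters, and binding was not measured.

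The respiratory chain and ATP synthase genes as a group stood lower in the CD133 high fraction. The median difference, CD133 high minus CD133 low, was −0.59 on the log2 scale over the 83 genes, against 0.001 over all 18193 genes and −0.07 over the 3061 genes with a mean log2 value of at least 10, where most members lie. With the Gapdh 3' to middle difference as a covariate the members' median was −0.29. It was −0.38 when the covariate was the mean of the hybridisation controls. A negative difference was found for 76 of the 83 genes (91.6%), against 49.8% of all genes. In 47 members (56.6%) every CD133 high sample lay below every CD133 low sample, against 12.8% of all genes, and in 2 members every CD133 high sample lay above, against 10.8%.

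No single member passed the test. With limma and Benjamini-Hochberg adjustment over all probe sets, 0 of 83 had an adjusted p under 0.05, where 0.231% of all genes were called lower and 0.022% higher. Adjusted p-values of members ran between 0.281 and 0.865. At an unadjusted p under 0.05, 43 members were lower and 3 higher, against 9.94% and 8.3% of all genes. Without CD133 high replicate 1, limma called 44 members lower (53%) and 3 higher, against 14.6% and 11.7% of all genes. The median over members was then −0.75. The CD133 high samples left in that fit are those whose Gapdh controls stood apart from the other samples. Its calls, lower and higher, therefore cannot separate the fraction from that control difference. With array weights, which gave CD133 high replicate 1 the lowest weight, 0.248, 34 members were called lower and 0 higher, against 7.69% and 5.91% of all genes.

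**Figure D1:**
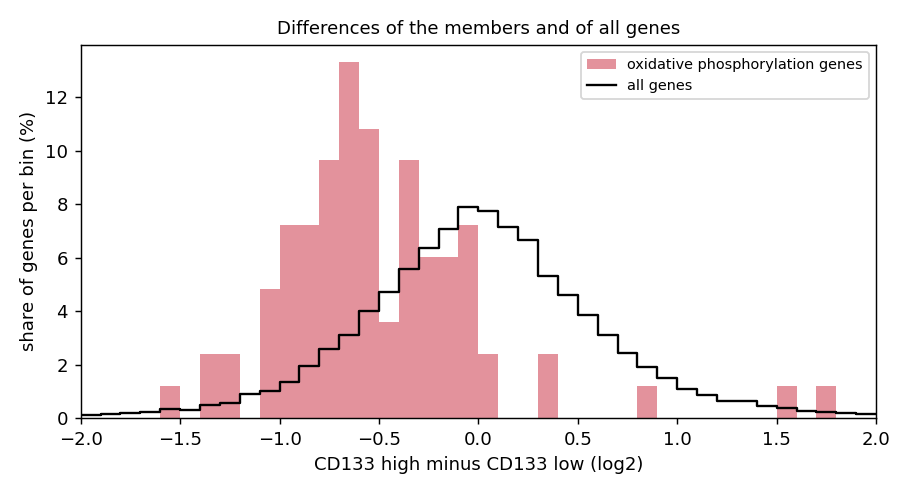
Share of genes, in percent, in bins of the log2 difference between CD133 high and CD133 low samples, for the 83 oxidative phosphorylation genes (bars) and all 18193 genes (line). The members' bars centre near their median of −0.59, whereas the line centres near 0.001.

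The shift was present in each CD133 high sample but not of the same size. Set against the mean of the CD133 low samples, the members' median was −0.27, −0.47 and −0.97 on CD133 high replicates 1, 2 and 3, and 0.02, 0.15 and −0.17 on CD133 low replicates 1, 2 and 3. The Gapdh control of CD133 high replicate 1 was like that of the CD133 low samples, but its poly-A controls, at 11.25, lay below theirs. That replicate lay below the CD133 low mean in 74 of 83 members (89.2%, against 50.7% of all genes). It lay below every CD133 low sample in 57 (68.7%, against 30% of all genes). CD133 high replicates 2 and 3 lay below the CD133 low mean in 66 and 75 members (79.5% and 90.4%, against 47.8% and 51.9% of all genes). CD133 high replicate 3 was the lowest of all 6 samples in 71 members (85.5%, against 26.7% of all genes). The CD133 low samples also differed together, since CD133 low replicate 3 was the lowest of them in 65 members (78.3%, against 34.8%) and CD133 low replicate 2 the highest in 67 (80.7%, against 34.8%). The gap between the medians of CD133 high replicate 1 and CD133 low replicate 3 was thus smaller than that between CD133 high replicates 1 and 3.

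**Figure D2:**
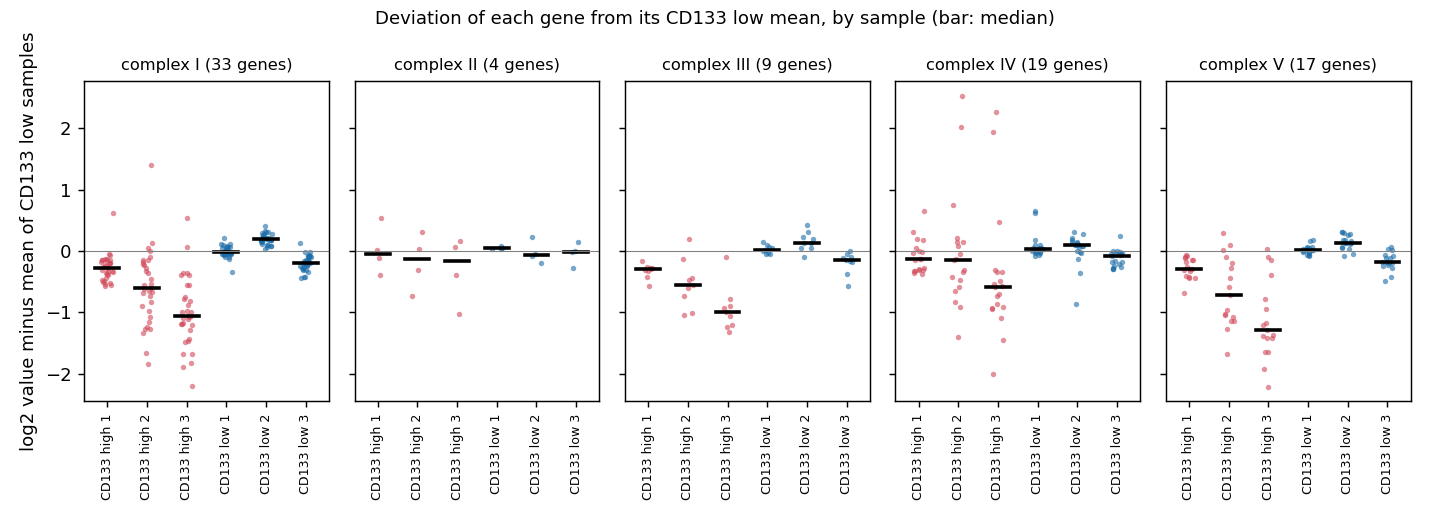
Each point is a gene's log2 value minus its mean over the CD133 low samples, by sample and complex, with CD133 high samples in red and CD133 low samples in blue and a bar at the median. For complex V the medians lie at −0.29, −0.71 and −1.29 on the CD133 high samples, and for complex II between −0.16 and −0.04.

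Among the complexes, V, I and III had like medians, complex IV a smaller one and complex II one near 0. The median difference was −0.71 for complex V (17 genes), −0.65 for complex I (33 genes), −0.64 for complex III (9 genes), −0.36 for complex IV (19 genes) and −0.09 for complex II (4 genes), and cytochrome c stood at −0.44. Every CD133 high sample lay below every CD133 low sample in 22 of 33 genes of complex I, 2 of 4 of complex II, 7 of 9 of complex III, 4 of 19 of complex IV and 12 of 17 of complex V, where 12.8% of all genes did so. On CD133 high replicate 1 the medians were −0.27 for complex I, −0.04 for complex II, −0.30 for complex III, −0.12 for complex IV and −0.29 for complex V. The smaller median of complex IV was set in part by its tissue-restricted forms: it was −0.51 over 10 ubiquitous subunits and −0.09 over 8 restricted forms. With the Gapdh covariate the medians were −0.34 for complex I, −0.31 for complex III, −0.13 for complex IV, −0.36 for complex V and −0.05 for complex II. The median of complex II was −0.29 with probe sets of shared sequence left out and −0.21 over all its probe sets. Differences between complexes were not tested.

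**Figure D3:**
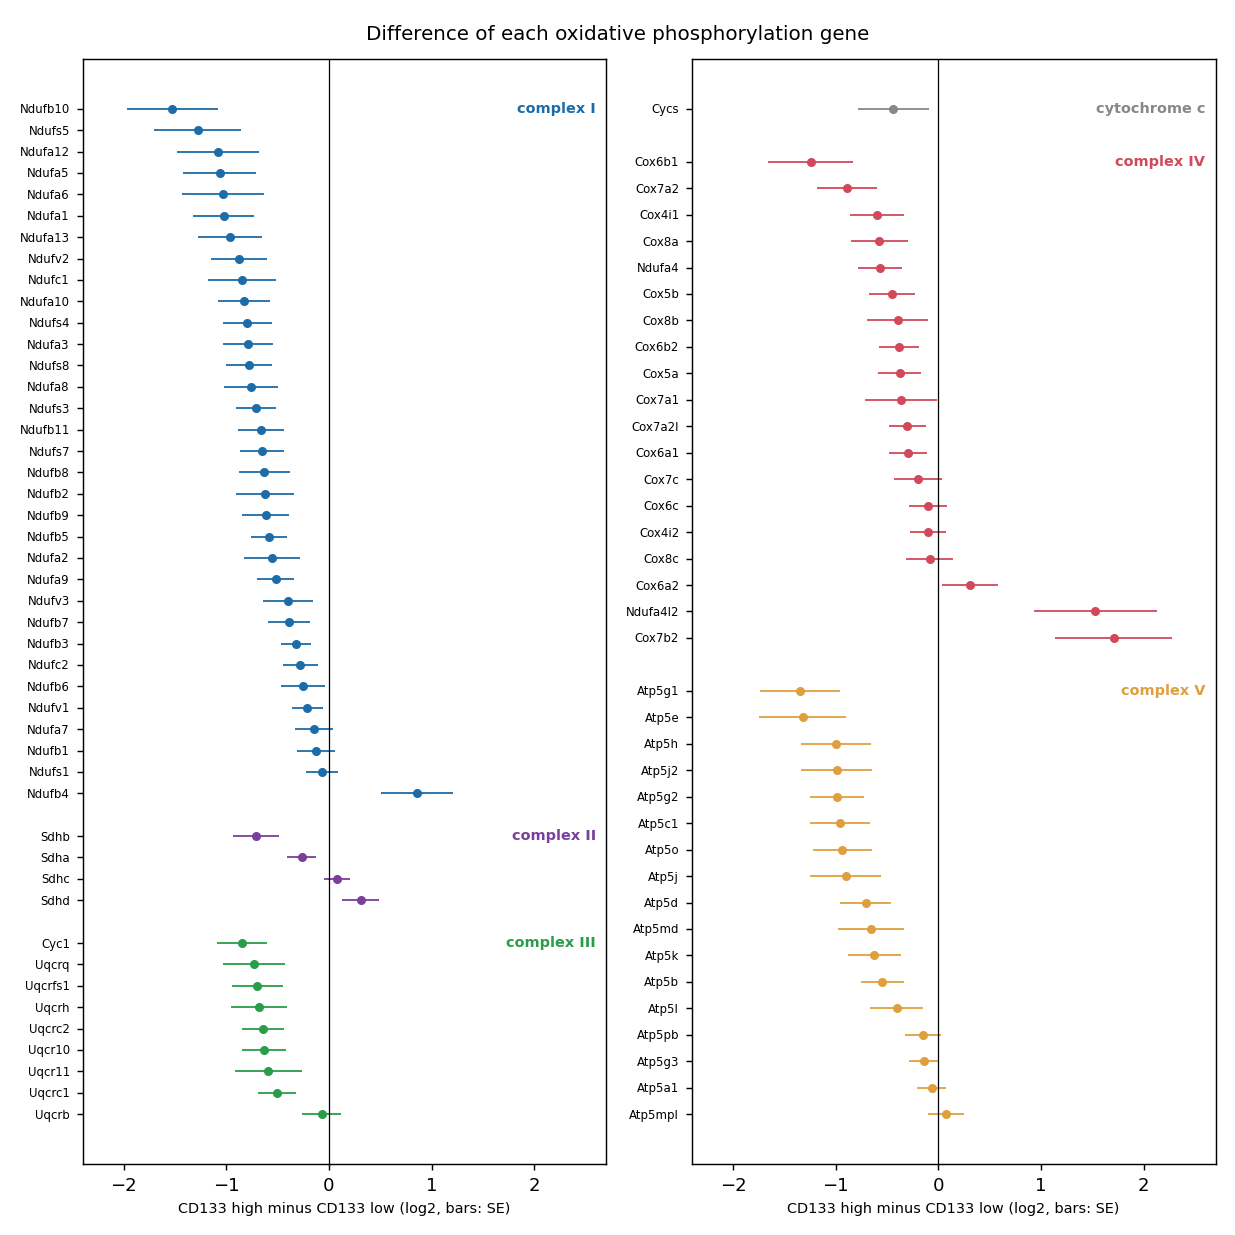
Difference of each of the 83 genes between CD133 high and CD133 low samples on the log2 scale, with standard errors from limma, grouped by complex. Points lie left of 0 for 76 genes, and the points right of 0 are Ndufb4, Sdhc, Sdhd, Cox6a2, Ndufa4l2, Cox7b2 and Atp5mpl.

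Complex I, NADH dehydrogenase, had 32 of 33 genes lower. The smallest p belonged to Ndufs3, a core subunit of the arm that reaches into the matrix, which had log2 values of 10.61, 10.41 and 10.07 on CD133 high samples, against 11.02, 11.29 and 10.89 on CD133 low samples. The fractions did not overlap, and the difference was −0.71 (SE 0.19, adjusted p = 0.286). Ndufs8, a core subunit that carries iron-sulphur clusters, stood at 10.98, 10.78 and 10.29 on CD133 high samples, against 11.52, 11.64 and 11.22 on CD133 low samples, again without overlap (difference −0.78, SE 0.22, adjusted p = 0.295). Over the 6 core subunits the median difference was −0.68. The core subunits Ndufv2 and Ndufs7, which carry iron-sulphur clusters, differed by −0.88 and −0.65. Ndufv1, where NADH is oxidised, and Ndufs1, which holds several of the clusters, differed by −0.21 and −0.07. Other probe sets of Ndufv1, at mean log2 values of 10.54 and 10.02, differed by −0.77 and −1.22, both without overlap. Ndufs1 had overlapping values of 9.08, 8.92 and 9.20 on CD133 high samples and 9.20, 9.22 and 8.98 on CD133 low samples (adjusted p = 0.843).

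The 27 accessory subunits of complex I, which surround the core and are needed for its assembly and stability, had a median of −0.63. Ndufb10, of the membrane arm, had the most negative difference of all members, with 10.15, 8.86 and 8.50 on CD133 high samples, against 10.72, 11.11 and 10.26 on CD133 low samples. CD133 high replicate 1 stood well above replicates 2 and 3 and lay just under the lowest CD133 low sample (difference −1.53, SE 0.44, adjusted p = 0.297). Ndufa1, a small membrane subunit, stood at 12.11, 11.18 and 10.97 on CD133 high samples, against 12.42, 12.48 and 12.44 on CD133 low samples (difference −1.03, SE 0.30, adjusted p = 0.297). Ndufa10 differed by −0.83 (10.44, 9.66 and 9.64 on CD133 high samples and 10.74, 10.93 and 10.56 on CD133 low samples). Ndufs5, Ndufa12, Ndufa5, Ndufa6 and Ndufa13 differed by −1.28, −1.08, −1.07, −1.03 and −0.96. At the other end, Ndufb1 differed by −0.13, with overlapping values of 10.87, 11.15 and 10.66 on CD133 high samples and 10.97, 11.23 and 10.85 on CD133 low samples. The exception in sign was Ndufb4, at 5.44, 6.21 and 5.35 on CD133 high samples, against 4.47, 5.02 and 4.93 on CD133 low samples (0.86, adjusted p = 0.315), for which the array has 1 single-gene probe set in its dim range. Probe sets that Ndufb4 shares with its copies Ndufb4b and Ndufb4c are outside the selection and differed by −0.47 and −0.91.

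In complex II, succinate dehydrogenase, the matrix subunits and the membrane anchors differed in sign. Sdhb, the iron-sulphur subunit, stood at 11.11, 10.77 and 10.48 on CD133 high samples, against 11.54, 11.73 and 11.22 on CD133 low samples, without overlap (difference −0.71, SE 0.22, adjusted p = 0.297). Sdha, the flavoprotein that oxidises succinate, stood at 10.71, 10.52 and 10.43 on CD133 high samples, against 10.90, 10.74 and 10.81 on CD133 low samples (difference −0.27, SE 0.14, adjusted p = 0.382). The anchors Sdhc and Sdhd, which bind ubiquinone, overlapped between the fractions. Sdhd had 10.97, 10.74 and 10.50 on CD133 high samples, against 10.47, 10.24 and 10.58 on CD133 low samples (0.31, adjusted p = 0.409), and Sdhc 10.21, 10.22 and 10.35 on CD133 high samples, against 10.24, 10.14 and 10.18 on CD133 low samples (0.08, adjusted p = 0.775). Dimmer probe sets of Sdhd and Sdhc turned the sign, at −0.29 and −0.17, so the split did not hold across probe sets.

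All 9 genes of complex III, which passes electrons from ubiquinol to cytochrome c, had negative differences. Cyc1, cytochrome c1, stood at 10.85, 10.16 and 9.96 on CD133 high samples, against 11.23, 11.22 and 11.06 on CD133 low samples (difference −0.85, SE 0.25, adjusted p = 0.297). Uqcrfs1, the Rieske iron-sulphur protein, stood at 11.31, 10.44 and 10.57 on CD133 high samples, against 11.57, 11.38 and 11.47 on CD133 low samples (difference −0.70, SE 0.25, adjusted p = 0.298). In both catalytic subunits CD133 high replicate 1 lay nearer to the CD133 low samples than to CD133 high replicates 2 and 3. The core proteins Uqcrc2 and Uqcrc1, which face the matrix, differed by −0.64 and −0.51. Uqcrc2 had 11.18, 10.73 and 10.52 on CD133 high samples and 11.42, 11.58 and 11.35 on CD133 low samples, and Uqcrc1 had 11.50, 11.31 and 10.98 on CD133 high samples and 11.80, 11.90 and 11.61 on CD133 low samples.

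The small subunits of complex III were lower by similar amounts, with 1 exception. Uqcr10 stood at 10.64, 10.34 and 9.94 on CD133 high samples, against 10.88, 11.13 and 10.80 on CD133 low samples (difference −0.63, SE 0.21, adjusted p = 0.297). Uqcrq, Uqcrh and Uqcr11 differed by −0.73, −0.68 and −0.59. Uqcrb overlapped, at 13.22, 13.72 and 13.43 on CD133 high samples and 13.53, 13.57 and 13.48 on CD133 low samples (−0.07, adjusted p = 0.863).

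Cytochrome c, the soluble carrier between complexes III and IV that also triggers caspase activation when released, is encoded by Cycs. Cycs stood at 12.53, 11.52 and 11.23 on CD133 high samples, against 12.38, 12.29 and 11.93 on CD133 low samples, and was highest of all in CD133 high replicate 1 (difference −0.44, SE 0.35, adjusted p = 0.526). Outside complexes II and IV, Cycs and Ndufb4 were the genes for which CD133 high replicate 1 exceeded the CD133 low mean.

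Complex IV, cytochrome c oxidase, is built around subunits encoded in mitochondrial DNA, and several of its nuclear subunits have alternative forms in particular tissues. All 10 ubiquitous subunits had negative differences. Cox6b1, on the side facing cytochrome c, stood at 12.33, 11.27 and 10.66 on CD133 high samples, against 12.72, 12.88 and 12.38 on CD133 low samples (difference −1.24, SE 0.41, adjusted p = 0.297). Cox7a2 stood at 12.30, 11.69 and 11.17 on CD133 high samples, against 12.61, 12.78 and 12.44 on CD133 low samples (difference −0.89, SE 0.30, adjusted p = 0.297). Ndufa4, named for complex I but now counted among the subunits of complex IV, stood at 11.52, 11.37 and 10.92 on CD133 high samples, against 11.94, 11.97 and 11.59 on CD133 low samples (difference −0.57, SE 0.21, adjusted p = 0.302). None of these 3 genes overlapped between the fractions at its brightest probe set, although the dimmer probe set of Cox6b1 (−0.47) did.

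The other ubiquitous subunits overlapped at their brightest probe sets. Cox4i1, which regulates the complex in response to ATP, had 12.91, 12.44 and 11.94 on CD133 high samples and 13.12, 13.09 and 12.87 on CD133 low samples (−0.60). Cox8a had 12.54, 11.65 and 11.53 on CD133 high samples and 12.50, 12.47 and 12.48 on CD133 low samples (−0.58), and Cox6a1 had 12.94, 12.60 and 12.40 on CD133 high samples and 12.99, 12.94 and 12.91 on CD133 low samples (−0.29). In each, CD133 high replicate 1 lay among or next to the CD133 low samples. Cox5b, Cox5a, Cox7c and Cox6c differed by −0.45, −0.38, −0.19 and −0.10, and Cox7a2l, a factor that joins complexes III and IV, by −0.30. Dimmer probe sets of these ubiquitous subunits at a mean of at least 9 were mixed. Those without overlap differed by −0.83 and −1.17 for Cox5b, −1.01 for Cox6a1, −0.68 for Cox6c and −0.42 for Cox5a. Those that overlapped differed by −1.19 for Cox5b, −0.54 for Cox8a and −0.06 for Cox5a. Cox7c was measured near 6, in the dim range, by single-gene probe sets.

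The restricted forms did not share a direction. Cox7b2, a relative of Cox7b, had the largest positive difference as deposited, with 4.18, 6.06 and 5.46 on CD133 high samples, against 4.18, 3.17 and 3.23 on CD133 low samples. CD133 high replicate 1 lay at the level of CD133 low replicate 1, and all values are dim (difference 1.71, SE 0.57, adjusted p = 0.297). With values below 5 set to 5, which takes in every CD133 low sample, the difference was 0.51, less than that of Ndufa4l2, so its size rests on dim values. Ndufa4l2, a form of Ndufa4 induced by hypoxia, stood at 8.20, 9.92 and 10.16 on CD133 high samples, against 8.51, 7.03 and 8.14 on CD133 low samples. It was higher on CD133 high replicates 2 and 3 than on any other sample, while replicate 1 lay within the CD133 low range (difference 1.53, SE 0.60, adjusted p = 0.305). Cox6a2, the form of heart and skeletal muscle, was likewise highest on CD133 high replicates 2 and 3 (8.58, 9.62 and 9.34 on CD133 high samples and 8.80, 8.98 and 8.83 on CD133 low samples, adjusted p = 0.573). Without CD133 high replicate 1, limma called these 3 genes higher, at 2.24, 2.14 and 0.61 (adjusted p = 0.0262, 0.024 and 0.0298), as it did 11.7% of all genes. That fit keeps the CD133 high samples whose Gapdh controls stood apart. With the Gapdh covariate over all samples the differences were 0.80 for Cox7b2, 0.45 for Ndufa4l2 and −0.21 for Cox6a2, and with the hybridisation covariate 0.76, 0.75 and −0.36.

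Of the other muscle forms, Cox7a1 differed by −0.36 and Cox8b by −0.39. Cox7a1 had 5.94, 6.53 and 5.39 on CD133 high samples and 6.31, 6.63 and 6.02 on CD133 low samples, and Cox8b 6.90, 6.05 and 5.98 on CD133 high samples and 6.63, 6.80 and 6.69 on CD133 low samples. The 12 skeletal muscle markers had a median difference of 0.01 and a summed linear signal of 317 to 458 on CD133 high samples and 319 to 417 on CD133 low samples, with Actn3 and Tnnc2 at exactly 0 on some samples. Cox4i2, a form found in lung and under low oxygen, had 7.989, 8.097 and 7.676 on CD133 high samples and 8.003, 8.094 and 7.959 on CD133 low samples (−0.10). The testis forms Cox6b2 and Cox8c differed by −0.38 and −0.08, with 7.59, 7.64 and 7.44 on CD133 high samples and 7.90, 8.22 and 7.69 on CD133 low samples for Cox6b2, and 9.75, 9.71 and 8.97 on CD133 high samples and 9.60, 9.53 and 9.56 on CD133 low samples for Cox8c.

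**Figure D4:**
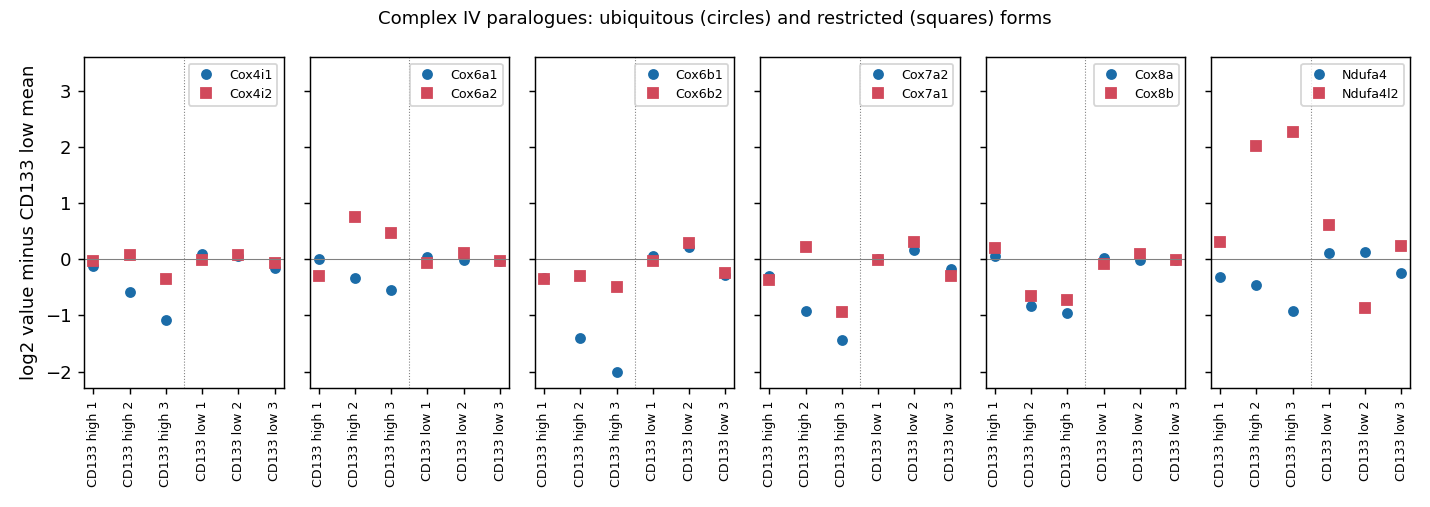
Log2 value of each gene minus its own mean over the CD133 low samples, for 6 ubiquitous subunits of complex IV (circles) and their restricted forms (squares), by sample. On CD133 high replicates 2 and 3, Ndufa4 lies below 0 and Ndufa4l2 above it, and Cox6a1 and Cox6a2 part in the same way, whereas Cox8a and Cox8b lie together.

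Complex V, ATP synthase, had 16 of 17 genes lower. In its membrane rotor, the c ring is made of an identical mature protein from 3 genes, and these did not have like differences. Atp5g2 had the smallest p of all members, with 11.28, 10.58 and 10.33 on CD133 high samples, against 11.77, 11.84 and 11.53 on CD133 low samples (difference −0.99, SE 0.26, adjusted p = 0.281). Atp5g1 stood at 10.25, 9.02 and 8.77 on CD133 high samples, against 10.61, 11.01 and 10.46 on CD133 low samples (difference −1.35, SE 0.39, adjusted p = 0.297). Atp5g3 differed by −0.14, with 12.68, 12.76 and 12.70 on CD133 high samples and 12.86, 12.77 and 12.91 on CD133 low samples (SE 0.15, adjusted p = 0.641). The fractions did not overlap in any of the 3, although in Atp5g3 the gap was under 0.1.

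Of the F1 head, which makes ATP, all 5 genes were lower. Atp5c1, the gamma subunit that turns inside the head, stood at 12.26, 11.44 and 11.16 on CD133 high samples, against 12.54, 12.73 and 12.45 on CD133 low samples (difference −0.95, SE 0.29, adjusted p = 0.297). Its other probe set differed by 0.08 but was far dimmer, at a mean of 7.34 against 12.10. Atp5e, the epsilon subunit, stood at 11.52, 11.13 and 9.99 on CD133 high samples, against 12.38, 12.51 and 11.71 on CD133 low samples (difference −1.32, SE 0.42, adjusted p = 0.297). Atp5d and the catalytic beta subunit Atp5b differed by −0.71 and −0.55. The alpha subunit Atp5a1, the partner of beta in the head, overlapped, with 12.35, 12.49 and 12.38 on CD133 high samples and 12.49, 12.42 and 12.50 on CD133 low samples (−0.06, SE 0.14, adjusted p = 0.836).

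Of the 9 genes of the stalk and the remaining membrane part, 8 were lower. Atp5o, which joins the peripheral stalk to the head, stood at 11.45, 10.91 and 10.44 on CD133 high samples, against 11.85, 12.15 and 11.59 on CD133 low samples (difference −0.93, SE 0.29, adjusted p = 0.297). The stalk subunits Atp5h and Atp5j differed by −0.99 and −0.90, and Atp5j2, Atp5md, Atp5k and Atp5l of the membrane part by −0.99, −0.65, −0.62 and −0.41. Atp5pb, subunit b of the stalk, differed by −0.15. Atp5mpl, a small membrane subunit, had 11.91, 12.30 and 12.04 on CD133 high samples and 11.95, 12.18 and 11.89 on CD133 low samples (0.08, adjusted p = 0.832).

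Probe sets of the same gene did not always give the same difference. Of 38 members with 2 or more probe sets at a mean of at least 9, the next brightest had the more negative difference in 23 (60.5%), against 55.4% of 1580 other genes. For Atp5pb the differences were −0.15 and −0.99, for Ndufb6 −0.25 and −0.91, for Cox6c −0.10 and −0.68, and for Uqcrb −0.07 and −0.60. Others went the opposite way, with −0.85 and 0.18 for Ndufc1, −1.24 and −0.47 for Cox6b1, −0.38 and −0.06 for Cox5a, and −0.28 and 0.02 for Ndufc2. In Atp5pb the probe sets lay close together on CD133 high replicate 1, at −0.15 and −0.22 from the CD133 low mean, and apart on replicate 2, at 0.10 and −1.20, and on replicate 3, at −0.40 and −1.56. Replicates 2 and 3 are those with the Gapdh 3' to middle differences of 0.44 and 0.46, and the part of transcript position in these gaps was not tested. All 6 probe sets of Ndufs8 were lower, by −0.78 to −1.80. Over all 169 probe sets of the members, 146 were lower, with a median of −0.60. Of the 49 members with several probe sets, 35 had the same sign at all of them.

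Genes that act around the respiratory chain showed the same sign to a lesser extent, and no gene of these lists passed the test in limma. Of 45 assembly factors of complexes I to V, 33 were lower, with a median of −0.33 and no overlap downward in 15, where 49.8% of all genes were lower and 12.8% had no overlap downward. Ecsit, an assembly factor of complex I, stood at 7.18, 6.68 and 6.92 on CD133 high samples, against 7.92, 7.96 and 7.75 on CD133 low samples (difference −0.95, SE 0.20, adjusted p = 0.189). Sdhaf1, needed to mature Sdhb, differed by −1.08 (adjusted p = 0.275). Of 15 enzymes of the citric acid cycle and pyruvate dehydrogenase 12 were lower (median −0.41), with Suclg1, a chain of succinyl-CoA ligase, at −0.52 and Idh3g, a chain of NAD-dependent isocitrate dehydrogenase, at −0.89. Of 21 mitochondrial import genes 18 were lower (median −0.35), with Timm17b at −0.67 and Pam16 at −0.95, both parts of the inner membrane translocase.

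Other mitochondrial lists lay nearer to 0. The 14 genes of coenzyme Q synthesis and electron transfer flavoprotein had a median of 0.02, with Coq2 at −0.48 and Coq8a at 0.71. The 7 carriers of ADP, ATP and phosphate and outer membrane channels had a median of −0.13, with Vdac3 at −0.51 and Slc25a3, the phosphate carrier, at −0.45. The 17 regulators of mitochondrial biogenesis also had a median of −0.13. Among them Ppargc1b, a coactivator of respiratory genes, stood at 6.74, 6.82 and 7.01 on CD133 high samples, against 7.89, 8.06 and 7.65 on CD133 low samples, without overlap and with CD133 high replicate 1 the lowest of all (difference −1.01, SE 0.19, adjusted p = 0.154). Polrmt, the mitochondrial RNA polymerase, differed by −0.76 (adjusted p = 0.297). Of the 17 regulators, 11 were lower and 6 higher. Every CD133 high sample lay below every CD133 low sample in 5 and above in 2, against 12.8% and 10.8% of all genes. Besides Ppargc1b and Polrmt, the 5 were Nrf1 (−0.80), Tfam (−0.30) and Pprc1 (−0.13). The 2 were Esrra (0.47), a nuclear receptor that works with coactivators such as Ppargc1b, and Yy1 (0.32), a transcription factor. All of these but Ppargc1b and Polrmt were named after their values were seen.

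Of 30 listed genes of these complexes that the symbol rule does not take, 3 were measured by single-gene probe sets, all lower. Ndufab1, the acyl carrier protein of complex I, differed by −0.58, and Atpif1, an inhibitor of ATP synthase, by −1.27. ND5, a complex I subunit encoded in mitochondrial DNA, stood at 13.09, 11.96 and 12.33 on CD133 high samples, against 13.15, 12.91 and 13.34 on CD133 low samples, so that CD133 high replicate 1 lay within the CD133 low range (difference −0.67, SE 0.31, adjusted p = 0.336).

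**Figure D5:**
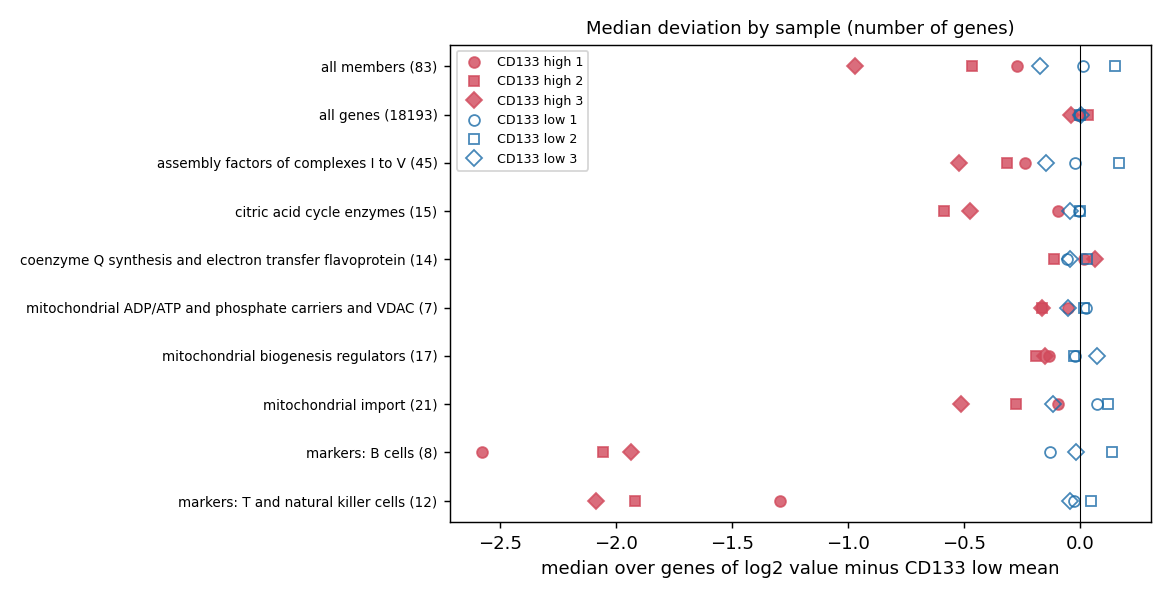
Median over the genes of each list of the log2 value minus the CD133 low mean, by sample, with CD133 high samples as filled red and CD133 low samples as open blue symbols. The oxidative phosphorylation genes lie at −0.27, −0.47 and −0.97 on the CD133 high samples, while the medians over all genes lie within 0.04 of 0.

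Markers of some other cell types moved with the fractions. Of 12 markers of T and natural killer cells 10 were lower in the CD133 high fraction, with a summed linear signal of 2065 to 2787 on CD133 high samples and 7239 to 8729 on CD133 low samples, and of 8 B-cell markers 6 were lower, with sums of 1335 to 2239 on CD133 high samples and 5722 to 7224 on CD133 low samples. With limma, 4 markers of each list passed the test, all lower, where 0.231% of all genes were called lower. The markers that were higher, Cd8a (0.31), Cd4 (0.44), Blk (0.11) and Pax5 (0.07), overlapped between the fractions. No marker of either list was at 0 on any sample. Of 6 fibroblast markers 5 were higher. Their sums were 48850, 54980 and 66810 on CD133 high replicates 1, 2 and 3, against 47380 to 52030 on CD133 low samples. This is the reverse of the order of the members' medians, and skeletal muscle and adipocyte sums rose likewise. The sums of T and natural killer (2787, 2241 and 2065), epithelial (25450, 22700 and 18280) and erythroid markers fell in the order of those medians. Epithelial sums were 20020 to 23040 on CD133 low samples. B-cell, macrophage and endothelial sums followed neither order. Of 3 erythroid markers 2 were lower, with sums of 136.6 to 171.7 on CD133 high samples and 207.4 to 274.4 on CD133 low samples. These markers did not share a direction. Alas2 was lower without overlap (−1.22), Slc4a1 overlapped (−0.35), and Hba-a1, which was dim, was higher without overlap (1.23). None of the fibroblast or erythroid markers passed the test or was at 0. The part of any of these cell types in the lower oxidative phosphorylation values was not tested. In sorted fractions measured as bulk RNA, fewer cells of a type and less RNA per cell cannot be told apart.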

How the data were processed

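The authors deposited log2 probe set values of 6 arrays, as judged from the values themselves. The sources used here do not say how probes were summarised or normalised. Per the labels' protocols, fractions were sorted by flow cytometry and biotinylated cRNA was hybridised to Affymetrix mouse arrays. Array medians lay between 6.60 and 6.77. Precision is limited by how few arrays there are.

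Of 45101 probe sets, 64 controls were left out. Genes were named from the platform annotation, in which 34945 probe sets have 1 gene, 932 several and 9160 none. The two-sided test was a moderated linear model (limma 3.58.1, R 4.3.3) of the deposited log2 values with an intensity trend in the variance. Benjamini-Hochberg adjustment ran over 45037 probe sets, at a threshold of 0.05. The steps were tested on simulated data. Errors of differences are standard errors from limma. An exact permutation test of 3 against 3 samples cannot give a two-sided p below 0.1 and was not used. Genes given with values per sample were, per complex, those with the smallest p, those with the smallest difference, and paralogues. Other members are given by their difference. The members and lists were chosen with earlier results of these data known. Alternatives covered normalization, a floor, filters, variance models, array weights, the choice of probe set, covariates and leaving out each sample. A further 3, on complex membership, dim members and all probe sets, were chosen after seeing the data.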

Additional observations from a re-analysis of the deposited data

How the results depend on the processing

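With limma, no member was called under the alternatives run, except with array weights (34 members) and without CD133 high replicate 1 (47 members). The calls with array weights were 34 lower and 0 higher, against 7.69% and 5.91% of all genes. Those without CD133 high replicate 1 were 44 lower and 3 higher, against 14.6% and 11.7% of all genes. Leaving out any other sample gave 0 calls. The fit without CD133 high replicate 1 keeps only CD133 high samples whose Gapdh controls stood apart. Its calls cannot separate the fraction from that control difference. With all samples, 46 members had an unadjusted p under 0.05 in limma. Of these 43 were lower and 3 higher, against 9.94% and 8.3% of all genes. Leaving out each sample kept the median over all members between −0.75 and −0.39. With the Gapdh 3' to middle difference as a covariate the medians were −0.29 for all members, −0.34 for complex I, −0.31 for complex III, −0.13 for complex IV and 0.25 for cytochrome c. In CD133 high replicate 1 alone they were −0.27 for all members, −0.27 for complex I, −0.30 for complex III, −0.12 for complex IV, −0.29 for complex V and 0.33 for cytochrome c. With the hybridisation controls as a covariate, complex II had a median of −0.012 and cytochrome c of 0.23, and all members of −0.38. The median of complex II was −0.29 with probe sets of shared sequence left out, which leaves 3 genes, and −0.21 over all its probe sets. Normalization moved the median over members to between −0.64 and −0.50.

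Values of single genes changed sign in 28 of 820 settings by gene, also for genes well away from 0 such as Atp5c1 (−0.95), Cox8a (−0.58) and Cycs (−0.44). Except where another probe set was used, the cause was not tested. With quantile normalization the genes that changed sign were Uqcrb (0.002) and Atp5a1 (0.053), and with the mean of probe sets Atp5a1 (0.33) and Sdhc (−0.046). Without probe sets of shared sequence they were Sdhd (−0.29) and Atp5c1 (0.083), each by a dimmer probe set, for Atp5c1 at a mean of 7.34 against 12.10. With the hybridisation controls as a covariate they were Cox8a (0.025), Cox8b (0.13), Cox6a2 (−0.36), Cox8c (0.081), Atp5mpl (−0.20) and Cycs (0.23), and with the Gapdh covariate Cox8b (0.13), Cox6a2 (−0.21), Cox8c (0.16), Atp5mpl (−0.064) and Cycs (0.25). In CD133 high replicate 1 alone they were Cox8a (0.057), Cox8b (0.20), Cox6a2 (−0.29), Cox8c (0.19), Atp5mpl (−0.093) and Cycs (0.33). With samples left out in turn, Uqcrb ran from −0.20 to 0.048, Ndufs1 from −0.14 to 0.009, Atp5mpl from −0.029 to 0.17, Cox4i2 from −0.19 to 0.025 and Cox8c from −0.22 to 0.17. No paired analysis was possible because the labels number no replicates.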

Other observations

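Probe sets shared by several genes were outside the selection, and the brighter of those that name a complex I subunit were lower as well. The probe set of Ndufs6 and Ndufs6b stood at 10.37, 8.92 and 8.38 on CD133 high samples, against 10.76, 11.10 and 10.41 on CD133 low samples (difference −1.54, limma, adjusted p = 0.297). The brighter probe set of Ndufa11 and Ndufa11b stood at 10.55, 10.06 and 9.43 on CD133 high samples, against 11.12, 11.48 and 10.72 on CD133 low samples (difference −1.09, adjusted p = 0.297).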
